A study of Arabidopsis thaliana with 6 samples.

Results

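PIF1, a transcription factor of the basic helix-loop-helix class in Arabidopsis thaliana, holds back germination and light responses in the dark. In imbibed seeds it is known to act through SOM (SOMNUS), a CCCH zinc-finger gene whose product represses light-dependent germination, and through genes of abscisic acid and gibberellin metabolism. Abscisic acid keeps seeds dormant. It is made from carotenoids by epoxycarotenoid dioxygenases (NCED) and other enzymes and inactivated by hydroxylases of the CYP707A family. Its signal passes through receptors that inhibit phosphatases such as ABI1, and reaches transcription factors such as ABI3, ABI4, ABI5 and ABF3.

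The binding of PIF1 was examined at 10 genes of this pathway, out of 27444 protein-coding genes on the nuclear chromosomes: SOM (AT1G03790), ABI1 (AT4G26080), ABI3 (AT3G24650), ABI4 (AT2G40220), ABI5 (AT2G36270), ABF3 (AT4G34000), CYP707A1 (AT4G19230), CYP707A2 (AT2G29090), NCED6 (AT3G24220) and NCED9 (AT1G78390). The genes were chosen by name and matched by locus code. A peak belonged to a gene when its summit lay inside the gene or within 3000 bp of either end, and 34 of the 25032 deposited peaks did. Distances are to the gene's ends as placed in the gene table, which was used without strand, so a peak is said to lie on the lower-coordinate or the higher-coordinate side and not upstream or downstream.

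Chromatin immunoprecipitation with an anti-Myc antibody was done on whole 3-day-old seedlings grown in darkness at 21 °C after 3 h of white light. The treated group, 3 libraries, overexpressed PIF1 with a Myc epitope tag in a transgenic line. The control group, 3 libraries, was wild type without the tag, taken through the same immunoprecipitation. The promoter of the transgene and the number of lines are not given in the sources used here, and the seedlings had passed germination, so the values describe tagged, overexpressed PIF1 in dark-grown seedlings and not in seeds. Each peak list set 1 PIF1 library against 1 wild-type library, and libraries 1, 2 and 3 were matched by the numbers in the titles.

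The lists differ in depth and length, which bears on every value below. Lists 1, 2 and 3 held 4578, 12776 and 7678 peaks, from 14209334, 5825479 and 5721184 PIF1 tags after removal of excess duplicates. Their median fold enrichments, the authors' ratio of PIF1 tags to the local wild-type background, were 2.71, 5.29 and 3.87. These ratios come from the authors and belong to single peaks. They rank peaks within a list, and no wild-type values for single libraries outside the lists were used here, so no test of PIF1 against wild type was made beyond the authors' peak calls. The peak caller's false discovery rate (FDR) stood at 100% for every peak of list 1 and for 82.5% of list 3.

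Of the 10 genes, 9 had a peak in at least 1 list, against 73.3% of all protein-coding genes. Peaks in all 3 lists were found for 5 genes, SOM, ABI1, ABI5, ABF3 and CYP707A2, against 13.6% of all genes. CYP707A1 and NCED9 had peaks in lists 2 and 3, ABI3 and ABI4 in list 2 alone, and NCED6 in none. By list, 5, 9 and 7 of the 10 genes had a peak in lists 1, 2 and 3, against 26.3%, 59.5% and 41.6% of all genes. The genes were chosen with earlier results of these data known, so these counts are a description. The median length of the 10 genes was 2583 bp, against 2078 bp over all protein-coding genes, and a longer gene has a wider window.

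Peaks from different lists were joined into regions where they shared at least 1 bp. A region with peaks of at least 2 lists is called a consensus region. Consensus regions lay at 7 of the 10 genes, against 30.0% of all genes, and regions held by all 3 lists at 4 genes (SOM, ABI1, ABF3 and CYP707A2), against 9.51%. Without replicate 2 the consensus regions of ABI5, CYP707A1 and NCED9 were lost and 4 genes kept one, against 10.5% of all genes. Of the 34 peaks, 13 had their summit inside a gene of the set, 12 up to 1000 bp outside and 9 farther out. For 10 of the 34, another protein-coding gene was nearer.

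**Figure D1:**
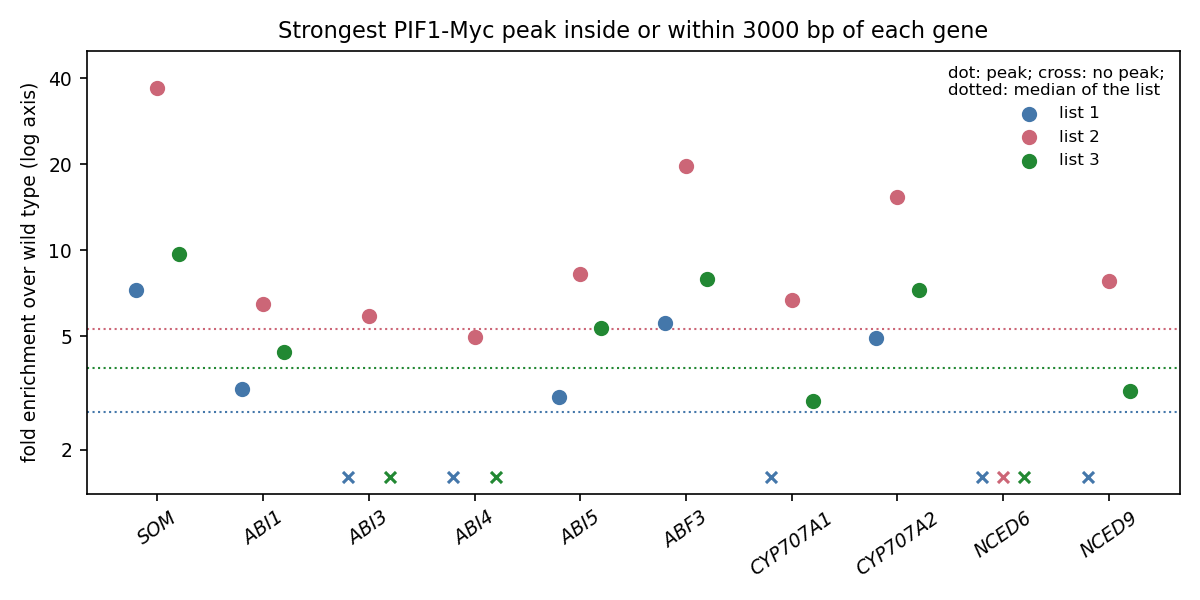
Fold enrichment over wild type (log axis) of the strongest peak at each of the 10 genes in lists 1, 2 and 3 (dots), with crosses where a list held no peak within 3000 bp and dotted lines at the median of each list. SOM is highest in every list (7.27, 37.04 and 9.71), followed in every list by ABF3 and CYP707A2, and NCED6 has crosses in all 3.

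SOM had the strongest and the most numerous peaks of the set. The main region, at chromosome 1, 956267 to 958364 (TAIR10), was held by all 3 lists. Its strongest peak was enriched 7.27-fold in list 1, 37.04-fold in list 2 and 9.71-fold in list 3, from 811, 603 and 443 tags. These stood at percentiles 98.1, 99.8 and 96.0 of their lists, and 0.547%, 0.160% and 2.01% of all protein-coding genes had a stronger peak in the same window. By the mean of the percentiles the region ranked 100 among the 1390 regions held by all 3 lists.

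The summits of the main region lay 906, 947 and 918 bp from SOM on its higher-coordinate side, and 54, 13 and 42 bp outside ERF10, a gene of the ERF transcription factor family. The region thus lay between SOM and ERF10, with ERF10 the nearer gene in every list. Which of the neighbouring genes, if any, responds to PIF1 was not measured here. In list 2 the score, which is 10 times the negative log10 of the caller's p, was 3233.06 and the highest of that list. Because 28 other list 2 peaks, the ABF3 peak among them, share a score of 3100, order at that end of the scale was not read. The strongest peak of the region had an FDR of 100% in list 1, 0% in list 2 and 23.55% in list 3.

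A further consensus region of SOM, at chromosome 1, 953970 to 954716, lay across the lower-coordinate end of the gene and was held by lists 2 and 3. Its fold enrichments were 13.0 and 7.71, from 224 and 92 tags, at percentiles 93.9 and 92.7. The summits, at positions 954330 and 954308, were 22 bp apart and 40 and 18 bp inside the gene. List 1 held no peak there. Its PIF1 library had the most tags of the 3 after removal of duplicates and the fewest, 16281353, before it.

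List 2 held a further 4 peaks around SOM. They had fold enrichments of 3.59 and 8.84 at 2072 and 1233 bp on the lower-coordinate side, 5.09 inside the gene, and 3.31 at 1934 bp on the higher-coordinate side. The peaks of 3.59-fold and 8.84-fold lay 368 and 1207 bp from TPX2 and thus nearer to it than to SOM, and that of 3.31-fold lay inside ERF10. With 6 peaks of list 2 in its window, SOM was among 31 of all protein-coding genes with at least 6, or 0.113%. List 1 held 1 peak there and list 3 held 2.

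**Figure D2:**
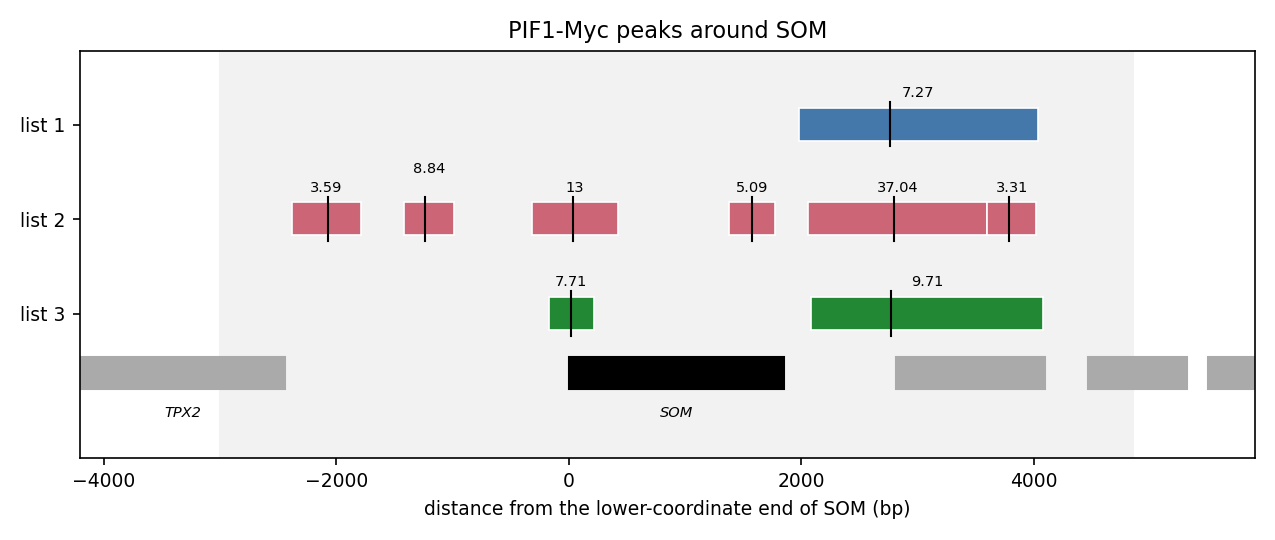
Peaks of lists 1, 2 and 3 (coloured bars) around SOM by distance in bp from the lower-coordinate end of the gene, with summits as black ticks, fold enrichments as numbers, SOM in black, neighbouring genes in grey and the 3000 bp window shaded. All 3 lists have a peak between SOM and ERF10, while the peak at the lower-coordinate end of SOM is held by lists 2 and 3.

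The main SOM region was stronger in list 2, relative to the other lists, than most regions were. The ratio of its fold enrichment in list 2 to that in list 1 was 5.09, against a median of 2.90 over the 1390 regions of all 3 lists, and 7.41% of those had a larger ratio. Against list 3 the ratio was 3.81 (median 1.82), with 5.25% of regions larger. Scaled to depth, the peak held 57.1, 104 and 77.4 tags per 1000000 filtered tags in lists 1, 2 and 3. These are totals over peaks of 2055, 1537 and 1990 bp, and per 1000 bp they were 27.8, 67.3 and 38.9. By either scaling the counts of PIF1 tags differed less between lists than the fold enrichments did, and more so without the scaling to length. Redundant tags made up 13%, 70% and 66% of the PIF1 libraries and 24%, 61% and 15% of the wild-type libraries of lists 1, 2 and 3. Their part in the difference between lists was not tested.

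Among 2609 protein-coding genes with a region of all 3 lists, those whose 3 fold enrichments were closest to the SOM values, apart from genes that share the SOM region, were counted by Euclidean distance of log2 fold enrichment. The nearest were the iron transporter genes IRT1 and IRT2, which share 1 region (6.36, 37.76 and 9.75, distance 0.20). AT1G76880 followed (5.96, 36.3 and 10.76, distance 0.32), then AT3G54500 and AT3G54510, which also share a region (7.92, 30.02 and 10.19, distance 0.33). The ratio of list 2 to list 1 was larger than at SOM for IRT1 and IRT2 and for AT1G76880. It was smaller for AT3G54500 and AT3G54510, so a large ratio was not particular to SOM among regions of like strength. The measure spans 3 lists and says only that the peaks are of like strength.

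Of the 4 genes of the set for transcription factors of abscisic acid signalling, ABF3, which encodes a bZIP protein that binds abscisic acid response elements, had the strongest peaks. Its region, at chromosome 4, 16294064 to 16295852, was held by all 3 lists, with fold enrichments of 5.54, 19.65 and 7.93 from 519, 736 and 223 tags. The percentiles were 94.4, 98.0 and 93.5, and 1.58%, 1.71% and 3.32% of all genes had a stronger peak. The FDRs were 100%, 2.94% and 16.13%. The summits lay 698, 768 and 710 bp outside ABF3 on its lower-coordinate side, with EMB2758 the next gene at 1650 to 1720 bp. List 3 held a weaker peak, 2.53-fold, with its summit just inside the gene. In list 2 the ABF3 peak held 126 tags per 1000000, more than the 104 of the SOM peak of the same list, although its fold enrichment was lower.

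ABI5, a bZIP factor that arrests growth after germination, had a peak in each list but no region common to all 3. The peak of list 1 (3.07-fold, 299 tags) and 1 peak of list 2 (8.22-fold, 122 tags) had summits inside the gene, 42 bp apart, in the region at chromosome 2, 15205435 to 15207212. Another peak of list 2 (6.92-fold, 285 tags) and that of list 3 (5.34-fold, 125 tags) had summits 20 and 62 bp beyond its higher-coordinate end, in the region at 15207218 to 15208580. Percentiles at ABI5 ran from 66.1 to 81.4, lower than for the strongest peaks at SOM and ABF3.

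ABI3, a B3-domain regulator of seed maturation, and ABI4, an AP2-domain factor, had peaks in list 2 alone. At ABI3 these were at chromosome 3, 8996662 to 8996960 (5.86-fold, 34 tags) and 8997130 to 8997853 (4.96-fold, 71 tags), 597 and 54 bp outside the gene on its lower-coordinate side. At ABI4 the peak was at chromosome 2, 16797671 to 16798026 (4.96-fold, 37 tags, 325 bp outside on the higher-coordinate side). Their percentiles, 60.6, 43.1 and 43.1, placed them near the middle of list 2. The exact 95% Poisson interval of the tags was 23.5 to 47.5 for the ABI3 peak of 34 tags and 26.1 to 51.0 for ABI4, and covers counting error only. Over all protein-coding genes, 20.8% had peaks of list 2 and of no other list in this window.

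ABI1 encodes a phosphatase that holds abscisic acid signalling off. A region at chromosome 4, 13223260 to 13224718, was held by all 3 lists, with fold enrichments of 3.26, 6.5 and 4.38 from 123, 333 and 149 tags. The percentiles of 71.5, 68.5 and 66.3 were the lowest among the 4 genes with such a region, and it ranked 1041 of 1390. Its summits lay 1493, 1444 and 1473 bp from ABI1 on the higher-coordinate side and 469, 518 and 489 bp from RPS2, a disease resistance gene, which was the nearer gene in every list. No summit lay inside ABI1 or within 1000 bp of it.

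The abscisic acid hydroxylase genes differed from each other. CYP707A2, whose product removes abscisic acid during imbibition of seeds, had a region of all 3 lists inside the gene, at chromosome 2, 12495612 to 12496739. Fold enrichments were 4.92, 15.39 and 7.23 from 128, 195 and 69 tags, at percentiles 91.7, 95.9 and 91.3, and 2.43%, 3.47% and 4.47% of all genes had a stronger peak. The FDRs were 100%, 5.18% and 100%. The summits, at positions 12495912, 12495917 and 12495920, were 1086 to 1094 bp inside the lower-coordinate end of the gene. List 2 held another peak in the gene, at 12497468 to 12497878 (6.98-fold, 77 tags).

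At CYP707A1 the consensus region, at chromosome 4, 10520969 to 10522116, was held by lists 2 and 3, with 6.69-fold in list 2 (115 tags) and 2.97-fold and 2.47-fold in list 3 (31 and 54 tags). The summits of the list 2 peak and of the stronger list 3 peak lay 6 and 61 bp inside the lower-coordinate end of the gene. The percentile was 70.8 in list 2 and 15.3 in list 3, so the list 3 peaks were among the weakest of that list. List 1 held no peak within 3000 bp of CYP707A1. The difference between the hydroxylase genes has no test, since each value is a single peak in each list.

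Of the synthesis genes, NCED9 had peaks in lists 2 and 3 and NCED6 had none. The consensus region of NCED9, at chromosome 1, 29494729 to 29495719, had 7.78-fold in list 2 (174 tags, percentile 78.9) and 3.21-fold in list 3 (57 tags, percentile 25.3). Its summits, 9 bp apart, lay 2472 and 2481 bp outside the gene on the higher-coordinate side, with AT1G78400 the next gene at 2847 and 2838 bp. List 2 held weaker peaks at 1947 bp on the lower-coordinate side (4.27-fold, nearer to GSTU19) and at 1000 bp on the higher-coordinate side (3.1-fold, percentile 1.67).

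The limit of 3000 bp decided some of these counts. The NCED9 region was the farthest consensus region inside it. Just outside, NCED6 had a list 2 peak at 3151 bp (5.47-fold, 111 tags), ABI5 a list 2 peak at 3166 bp (5.64-fold) and CYP707A2 a list 1 peak at 3055 bp (2.42-fold). ABI3 had peaks of lists 2 and 3 at 3356 and 3373 bp on its lower-coordinate side, in overlapping positions, with 9.22-fold and 4.6-fold enrichment (96 and 54 tags). In list 2 this fold enrichment was above those of the ABI3 peaks inside the limit, and AT3G24640 was the nearer gene, at 1066 and 1049 bp.

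**Figure D3:**
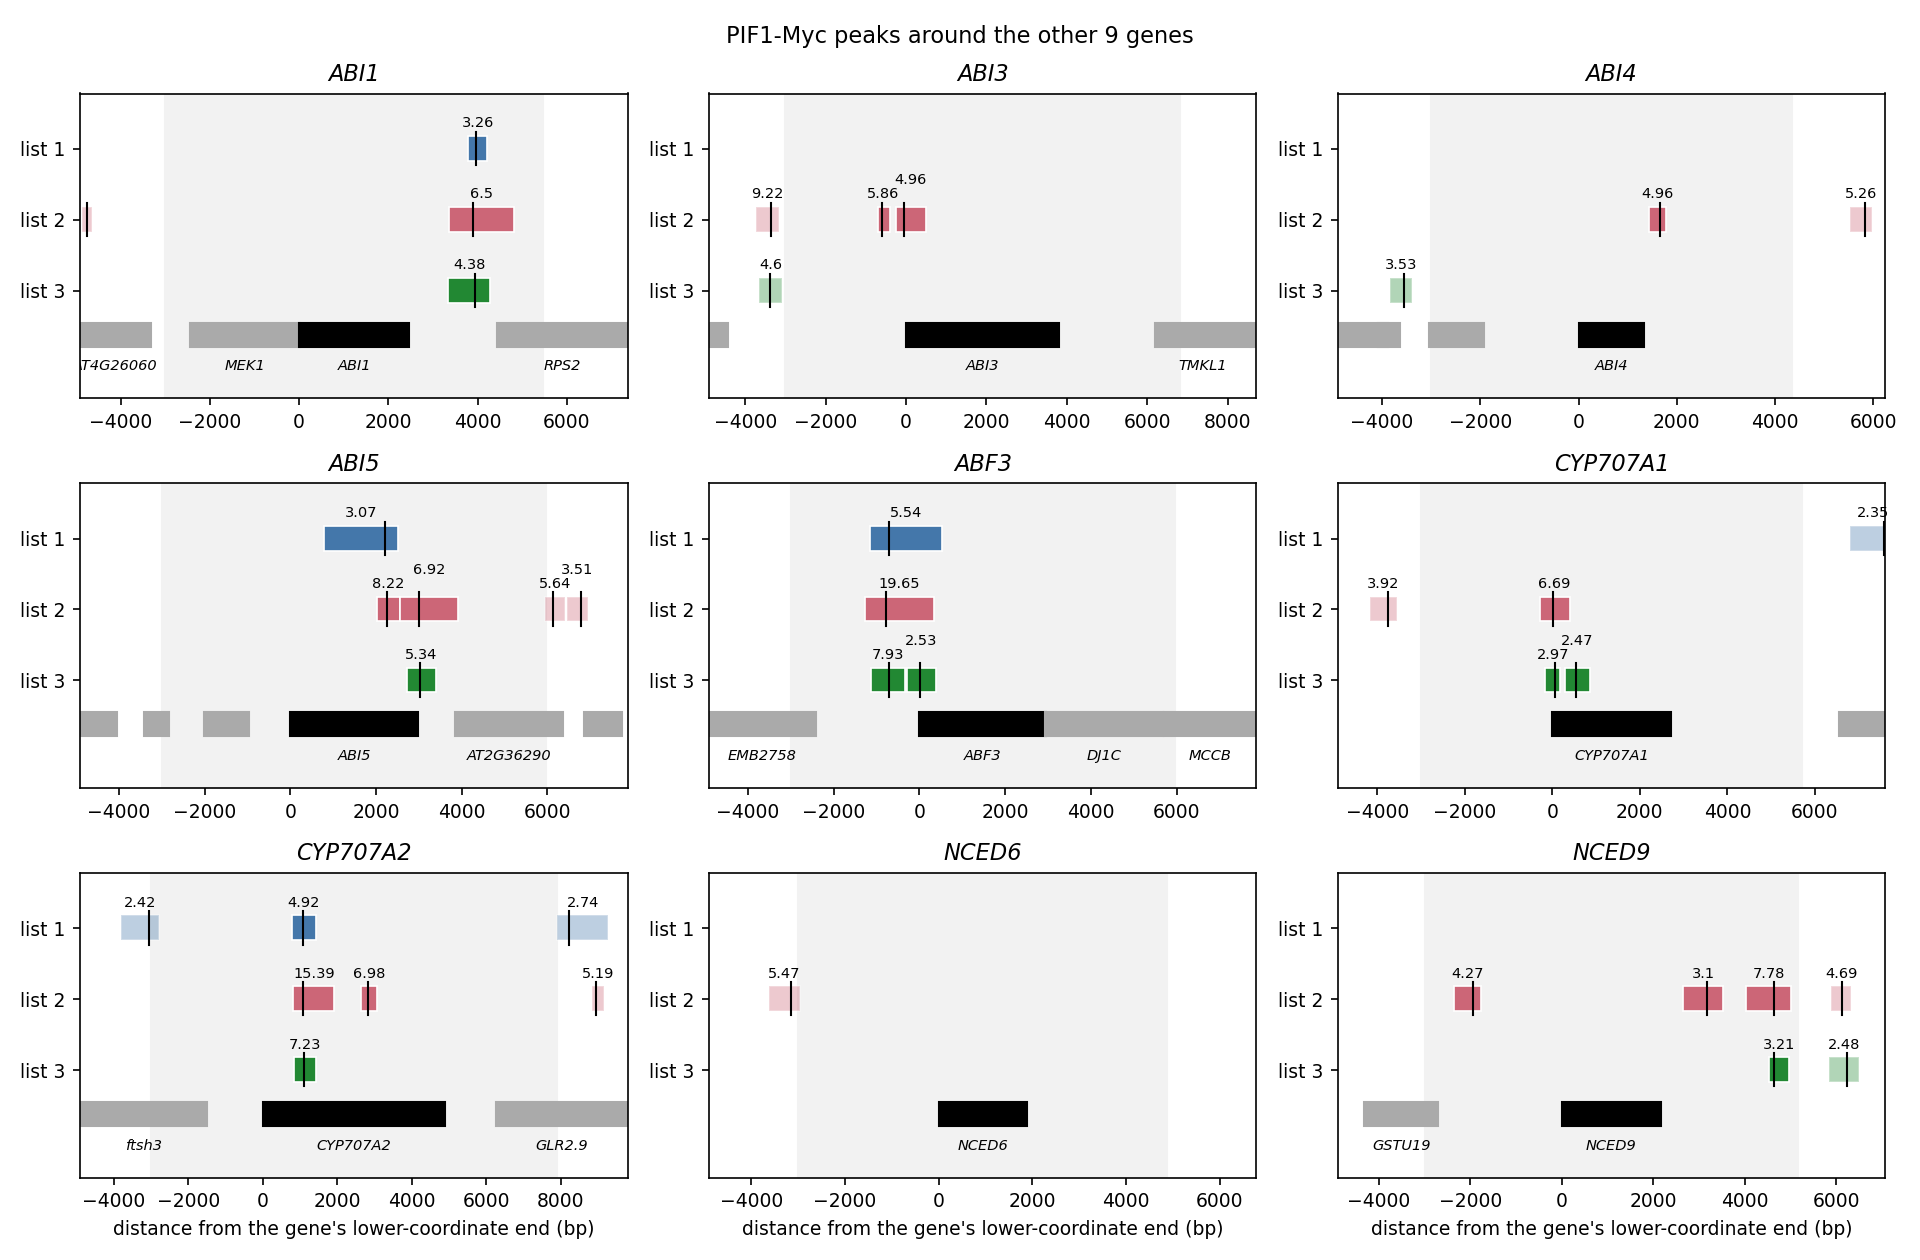
Peaks of lists 1, 2 and 3 (coloured bars, pale where the summit is over 3000 bp from the gene) around the other 9 genes by distance in bp from the lower-coordinate end of each gene (black), with summits as ticks, fold enrichments as numbers, neighbouring genes in grey and the 3000 bp window shaded. Summits of the 3 lists stand one above the other at ABI1, ABF3 and CYP707A2, while NCED6 has no summit in its window.

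The position of the summits was compared between lists at the 4 genes with a region of all 3, using the strongest peak of each list. The outermost summits were 8 bp apart at CYP707A2, 41 bp at SOM, 49 bp at ABI1 and 70 bp at ABF3. Over the 1390 regions of all 3 lists the median was 48 bp, with quartiles of 26 and 96.8 bp. CYP707A2 stood at the narrow end, since 3.45% of regions had a smaller spread, while 43.7%, 50.9% and 65.5% did for SOM, ABI1 and ABF3. Per the file headers the fragment size used by the peak caller was 120 bp, above each of these 4 spreads.

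**Figure D4:**
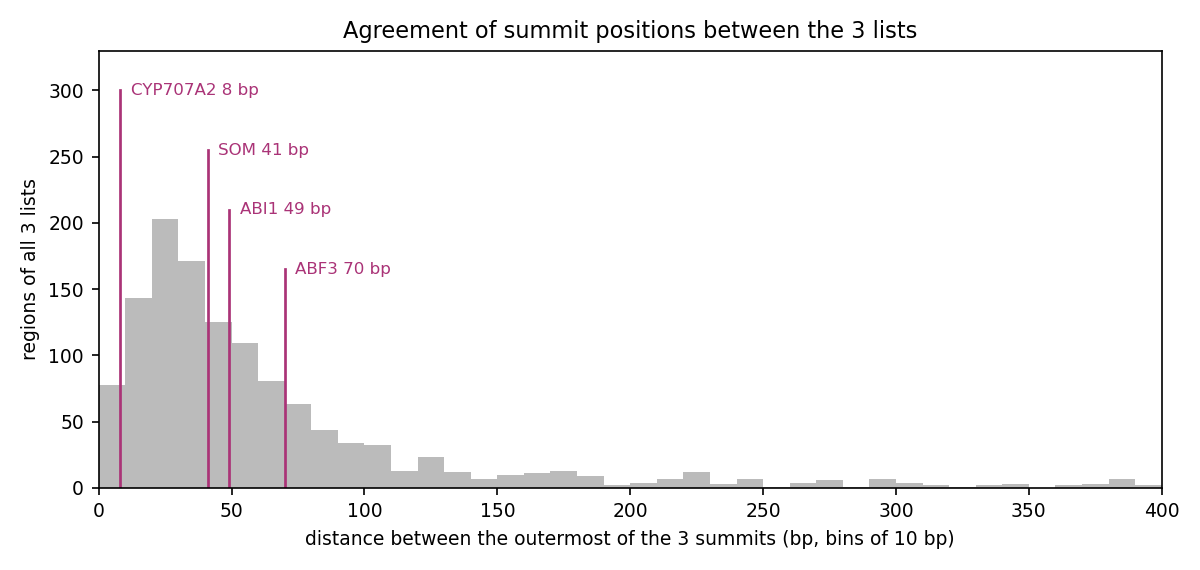
Distance in bp between the outermost of the 3 summits (bins of 10 bp) for the regions held by all 3 lists, as the number of regions, with lines at the 4 genes of the set that have such a region; line heights carry no value, and 129 regions above 400 bp are not drawn. CYP707A2 (8 bp) lies in the lowest bin and SOM (41 bp), ABI1 (49 bp) and ABF3 (70 bp) lie near the median of 48 bp.

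The strength of the best peak varied over the set. In list 2 a peak of at least 10-fold lay at 3 of the 10 genes (SOM, ABF3 and CYP707A2), against 9.91% of all genes. In list 1 the median fold enrichment of the 5 peaks was 4.92, against 2.71 over the list. In list 2 that of the 19 peaks was 6.69, against 5.29, and in list 3 that of the 10 peaks was 4.86, against 3.87. The FDR was at most 5% for 4 of the 34 peaks, all in list 2. These were the SOM peaks of 37.04-fold and 13.0-fold (0% and 2%), the ABF3 peak (2.94%) and the ABI1 peak (3.25%). Over the lists, 0, 1350 and 5 peaks of lists 1, 2 and 3 had such an FDR.

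A wider list of 60 other genes of abscisic acid synthesis, catabolism, transport, perception and signalling and of seed germination was read in the same way. Of these, 32 (53.3%) had a consensus region and 14 (23.3%) a region of all 3 lists, against 30.0% and 9.51% of all genes. Without replicate 2, 16 genes of the list had a consensus region, 14 of them among the 32, against 10.5% of all genes. Without replicate 3, 17 did, all among the 32, against 13.0%. By class, consensus regions lay at 6 of 14 receptor genes, 7 of 10 seed regulators, 3 of 8 synthesis genes, 6 of 8 phosphatase genes and 3 of 6 bZIP genes. They also lay at 3 of 5 tandem zinc-finger genes, 1 of 3 kinase genes and 1 of 2 transporter genes. In the class named catabolism, which also holds genes of abscisic acid conjugates, they lay at 2 of 4.

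**Figure D5:**
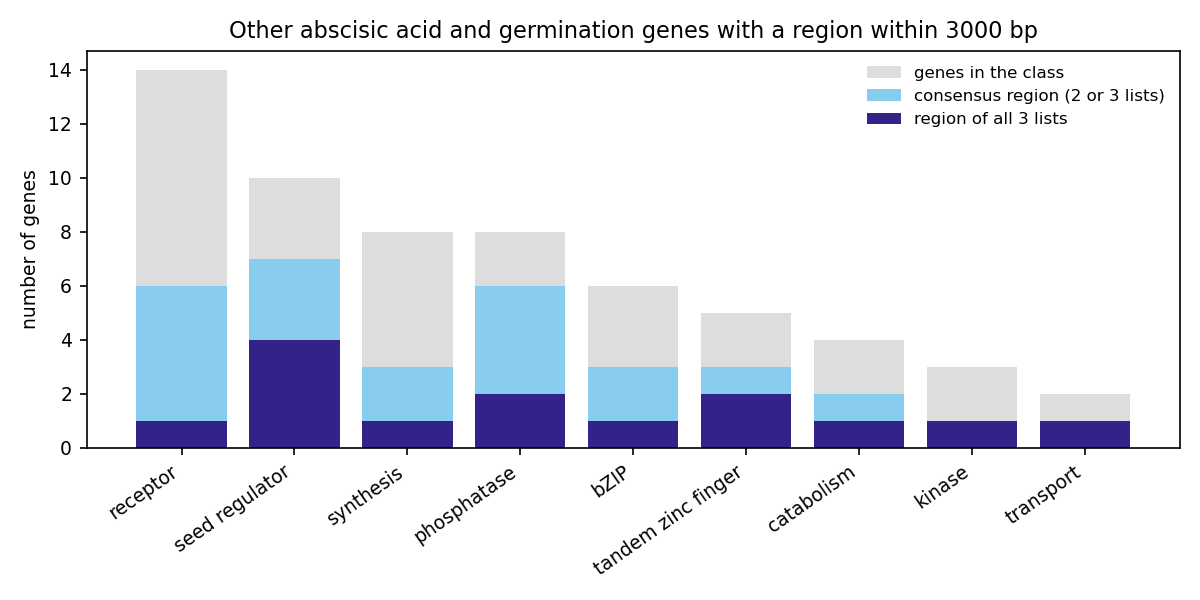
Number of genes in each class of the wider list of 60 genes (grey bars, from 0), with the number that have a consensus region within 3000 bp (light blue) and a region of all 3 lists (dark blue) drawn over them. Seed regulators have the most regions of all 3 lists (4 of 10, against 9.51% of all genes). A consensus region lies at 6 of 8 phosphatase genes, against 30.0% of all genes. Without replicate 2, only HAI1 and PP2CA of these keep one, against 10.5% of all genes.

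Among catabolism genes of the wider list, CYP707A4, a further hydroxylase gene, had a region of all 3 lists with summits 32 to 49 bp outside it (7.36, 14.17 and 8.91, chromosome 3, 6673301 to 6674007). In list 1 this was a higher fold enrichment than at SOM, and in list 2 a lower one. CYP707A3 had a region of lists 2 and 3 inside the gene (7.85 and 4.47). This gene is named, after its values were seen, because it completes the family. All 4 listed CYP707A genes, CYP707A1 and CYP707A2 included, had a consensus region, against 30.0% of all genes. Outside this family the class held only UGT71B6 and BG1 (BGLU18 in the gene table), also named after their values were seen. BG1 encodes a glucosidase that releases abscisic acid from a conjugate and does not break it down. UGT71B6 and BG1 had no consensus region, as was so for most genes. Without replicate 2, and likewise without replicate 3, CYP707A1 and CYP707A3 lost theirs and 2 of the 4 kept one. The shares of all genes were then 10.5% and 13.0%. With a score of at least 100, or with peaks of at least 5-fold, the same 2 kept one, against 16.3% and 9.85% of all genes.

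TZF5, a relative of SOM among the tandem zinc-finger genes, had a region of all 3 lists 555 to 579 bp away (5.43, 13.0 and 18.59), and TZF1 (ATCTH in the gene table) had one of lower values (2.79, 6.68 and 3.78). Of the seed regulators, the dormancy gene DOG1 had a region inside the gene (4.87, 11.08 and 8.05). LEC2, a B3-domain regulator of embryo development, had 3.46, 12.77 and 4.03 at 1579 to 1624 bp. SPT, a helix-loop-helix gene that affects germination in the cold, had 2.75, 9.43 and 3.82, and DAG2, a DOF gene, had 2.88, 4.87 and 6.15 at 1649 to 1812 bp, where AT2G46580 was nearer.

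In synthesis and transport, ABA1, for zeaxanthin epoxidase, had a region of all 3 lists (5.62, 13.96 and 6.03), as had ABCG25, for an exporter of abscisic acid (3.82, 12.65 and 5.93). In the signalling chain, the receptor gene PYL8 (RCAR3 in the gene table) had 5.52, 18.54 and 4.7, the kinase gene SNRK2.3 had 4.39, 11.08 and 9.77, and the phosphatase genes HAI1 and PP2CA had 4.37, 14.81 and 5.15, and 3.38, 9.57 and 5.37. The bZIP gene EEL had 4.14, 20.44 and 10.31, in a region that also lay inside AT2G41060. ABF3 had higher fold enrichments than EEL in list 1 and lower ones in lists 2 and 3.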

How the data were processed

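Per the submitters' processing notes, reads were handled with MACS 1.4.1, Bowtie 0.12.7 and CASAVA 1.8.0 on the build TAIR10. Per the file headers, MACS compared 1 PIF1 with 1 wild-type library per list (p cutoff 1e-05, excess duplicates removed, smaller data set scaled to the larger). The authors deposited, per peak, a tag count of the PIF1 library, a score from the caller's p, a fold enrichment (a ratio to local wild type) and an FDR in percent.

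Here summits (start + summit − 1) were assigned to genes within 3000 bp, and peaks overlapping by at least 1 bp were joined. Gene names, neighbours and distances came from a table of assembly TAIR10.1; all 70 listed genes matched by locus code, and none of its coordinates are printed. As a check, the share of consensus regions within genes was 35.7%, and 51.6% after a shift of 1000 bp. No genome sequence was used, so the planned motif search was not run. Each of the 6 libraries pooled 4 immunoprecipitations of 2 biological replicates, and their spread may be partly technical. Members and lists were chosen with earlier results of these data known. Named are all members, wider-list genes with a region of all 3 lists, the genes nearest to a peak, and the genes closest to SOM; other names were chosen after their values were seen, as said beside them. Scripts (Python 3.11.15, pandas 2.3.3) were tested on simulated peaks.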

Additional observations from a re-analysis of the deposited data

How the results depend on the processing

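The counts of 9 (a peak in at least 1 list), 5 (in all 3 lists) and 7 (a consensus region) of 10 genes, and of 32 of 60 genes of the wider list, were recomputed under 11 alternatives, or 14 for consensus regions. Leaving out 1 replicate at a time gave 7 to 9, 5 to 7, 4 to 7 and 16 to 30. The lowest of the last 2 came without replicate 2, whose list is the longest. Over all genes the shares were 52.5% to 68.2%, 15.4% to 32.8% and, for consensus regions, 10.5% to 26.1%. With 1 list left out, the second count means peaks in both lists that remain. Its 7 came without replicate 1, where the share was 32.8%. With a score of at least 100, 3 genes had peaks in all lists (5.31% of all genes) and 21 wider genes a consensus region (16.3%). With peaks of at least 5-fold, 2 genes, SOM and ABF3, had peaks in all lists (2.09% of all genes), and 4 and 15 of the wider list a consensus region (9.85%). With an FDR of at most 5%, 3 genes, SOM, ABI1 and ABF3, had any peak (9.37% of all genes). A consensus region was left at 0 genes of the set and 0 of the wider list, against 0.0255% of all genes. Peaks in all lists could not occur at any gene (0.00% of all genes), because 0 peaks of list 1 pass this limit. Of list 3, 5 peaks do. When only the nearest protein-coding gene was counted, 3 genes had peaks in all lists (5.61% of all genes), since the peaks at ABI1 went to RPS2 and that of SOM in list 1 to ERF10. When a region needed all 3 lists, 4 genes of the set and 14 of the wider list had one (9.51% of all genes). The other alternatives, among them windows of 1000, 2000 and 5000 bp, kept every count within 1.5 times, but the share over all genes moved with the window. At 1000, 2000 and 5000 bp, 5, 6 and 8 genes of the set had a consensus region. Of the wider list, 26, 31 and 40 did, against 17.5%, 23.8% and 40.2% of all genes. Taking the peak nearest to the gene in place of the strongest changed 5 of 21 fold enrichments: in list 2 SOM went from 37.04 to 13.0, ABI3 from 5.86 to 4.96 and NCED9 from 7.78 to 3.1, and in list 3 SOM went from 9.71 to 7.71 and ABF3 from 7.93 to 2.53. No paired analysis was possible because the result comes from no test. Each list already sets 1 PIF1 library against 1 wild-type library, matched here by the numbers in the titles. There is thus no fold enrichment from another matching to compare. The labels used here do not say that same-numbered libraries shared a harvest or batch. Counts of tags limit the weakest peaks, such as the 34 tags at ABI3.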

Other observations

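Some genes of the wider list had strong peaks in lists 2 and 3 without one in list 1 (they were chosen after their values were seen). The receptor gene PYL13 had fold enrichments of 15.11 and 7.95 at 859 to 870 bp, and PYL5 had 12.48 and 8.78 at 444 to 504 bp. The phosphatase gene HAI2 had 9.69 and 6.71 at 186 to 227 bp. These values lay above those of ABI5 in the same lists. Each region rests on lists 2 and 3, so it is lost when either list is left out.

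Genes for proteins of the same family differed (these too were chosen after their values were seen). The receptor genes PYL1 and PYL10 and the kinase gene SNRK2.2 had no peak of any list within 3000 bp, while PYL8 and SNRK2.3 had regions of all 3 lists. With a window of 5000 bp, PYL10 and SNRK2.2 had a consensus region as well. LEC1 and AAO3 had peaks in all 3 lists but no consensus region within 3000 bp, where a region was placed at the mean of its summits. LEC1 had one when peaks with summits within 200 bp were joined instead. It also had one when any overlap of a peak or region with the window counted. Each of these is a description of single loci, and no test of a difference between them was made.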
